A study of Canis lupus familiaris with 12 samples.

Results

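MYC was followed here across the 4 groups of a microarray study of Mi/CMM1, a cell line derived from a canine oral melanoma. It was chosen for an opposite direction under piroxicam and carprofen, by matching the dog RefSeq transcripts of MYC to the transcript identifiers printed for each probe. One probe matched (A_11_P0000019963), present as 1 spot, among 832 genes that could be named in this way and 43603 distinct probes in all. The 1 probe reads the abundance of MYC RNA near its own target and gives no information on isoforms or on the protein. The values that led to the choice are those of piroxicam and carprofen against control and against each other, so they are given below as a description, with estimates and standard errors and with no test.

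Cultures received piroxicam, carprofen or robenacoxib, all of them inhibitors of cyclooxygenase enzymes used against pain and inflammation in dogs, while control cultures received no drug. No vehicle was named for the control. Each group had 3 arrays, which the series design calls biological replicates, and all 12 arrays hold RNA of the same cell line, so nothing here separates this line from other melanomas. Per the labels of the samples and the design text, the concentrations were 116 µM piroxicam, 779 µM carprofen and 156 µM robenacoxib for 6 h. The treatment protocol instead gives 779 µM piroxicam, 116 µM carprofen and 156 µM robenacoxib, with harvest 24 h after the drugs were added to cells seeded 24 h earlier. The labels do not settle which of these holds, so doses of piroxicam and carprofen are not compared, and the exposure time behind every value is either 6 or 24 h.

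MYC encodes a basic helix-loop-helix leucine zipper transcription factor that binds E-box DNA as a dimer with MAX. It raises the transcription of genes for ribosome production, nucleotide and energy metabolism and cell cycle entry, and lowers that of some growth-arrest genes, partly through the zinc finger protein ZBTB17. Its messenger RNA and protein are both short-lived, so its RNA level follows growth factor, WNT and mitogen-activated kinase signals quickly. In mammals its transcription also depends on bromodomain proteins that bind acetylated chromatin.

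The arrays were hybridised with 1 dye. Over the 28346 probes well above background on every array, Pearson's r was 0.9973 to 0.9991 between arrays of 1 group and 0.9945 to 0.9984 between arrays of different groups. The share of probes well above background on an array was 66.2% to 72.8% with piroxicam, 70.6% to 80.1% with carprofen, 73.1% to 76.0% with robenacoxib and 73.7% to 79.3% in controls, and no spot was saturated. The arrays came from 3 slides, each with its own scan, and slide and scan cannot be told apart. Carprofen 1 shared slide 1 with all 3 controls. Piroxicam 1 and 2 shared slide 2 with carprofen 2 and 3, and piroxicam 3 shared slide 3 with all 3 robenacoxib arrays. Of 13 melanocyte markers, 7 could be named, and MITF, SOX9 and SLC45A2 were well above background on all 12 arrays, whereas TYR and EDNRB were on 0. SLC45A2 was dim (signal 48.4 to 85.1), and MC1R was above background on 8 arrays and KIT on 4. The fibroblast markers COL1A1, COL1A2, DCN and PDGFRB were all above background on 12 arrays, and the fibroblast markers' summed signal was 158550 to 169650 with piroxicam, 152670 to 162260 with carprofen, 155430 to 160160 with robenacoxib and 154320 to 163830 in controls. That sum is nearly all collagen, since COL1A2 read 130950 to 144660 and COL1A1 21310 to 25011, against 207 to 372 for PDGFRB and 39.9 to 64.8 for DCN. Leukocyte and endothelial markers were mixed. CD4 (signal 83.6 to 201) and CD8A (41.1 to 131) of leukocytes and VWF of endothelium (2636.8 to 3634.3) were above background on 12 arrays. MS4A1 of B cells and KDR of endothelium were above background on 0 arrays.

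MYC RNA was highest with piroxicam and lowest with carprofen. Its processed signal, the intensity after the scanner software's own corrections, was 4978.1, 4874.3 and 4930.6 on the piroxicam arrays. It was 2297.9, 2478.6 and 2329.7 on the carprofen arrays, 3011.8, 3347.8 and 3336.1 on the robenacoxib arrays, and 2878.7, 2925.8 and 2890.6 on the control arrays. With no scaling between arrays the 4 groups did not overlap, and their order was piroxicam, robenacoxib, control, carprofen. The means were 4927.7 ± 52.0 with piroxicam, 2368.7 ± 96.5 with carprofen, 3231.9 ± 190.7 with robenacoxib and 2898.4 ± 24.5 in controls (SD, n = 3 each). The mean processed signal was thus 1.70 times the control mean with piroxicam, 0.817 times with carprofen and 1.12 times with robenacoxib. The MYC spot stood far above its surroundings on every array, at 91.9 to 356 times the local background, and the scanner software's own error was about 10% of the signal.

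**Figure D1:**
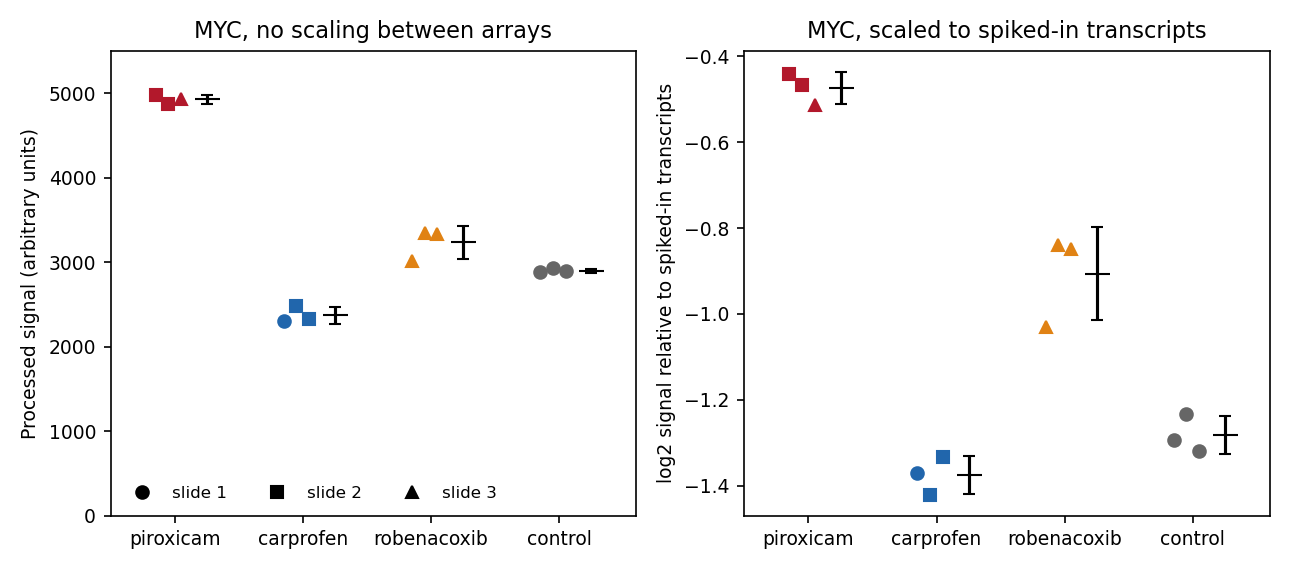
MYC by array in the piroxicam, carprofen, robenacoxib and control groups, as processed signal with no scaling between arrays (left) and as log2 signal relative to 8 spiked-in transcripts (right). Each symbol is 1 array, its shape gives the slide, and the cross and bars are the mean and SD of 3 arrays. The piroxicam arrays lie above all others on both scales, while the carprofen arrays lie 400.1 signal units below the lowest control on the left and 0.01 log2 units below it on the right.

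Brightness differs between arrays, so the signal was also expressed as log2 relative to the signal that 75% of an array's probes stay below, the 75th percentile. On this scale MYC was 1.11, 1.10 and 1.07 on the piroxicam arrays, 0.03, -0.01 and 0.05 on the carprofen arrays, 0.47, 0.56 and 0.57 on the robenacoxib arrays, and 0.43, 0.48 and 0.48 on the control arrays. The lowest robenacoxib array lay inside the control range, and every other pair of neighbouring groups was separate. Group means were 1.09 ± 0.02 with piroxicam, 0.02 ± 0.03 with carprofen, 0.54 ± 0.05 with robenacoxib and 0.46 ± 0.03 in controls (SD, n = 3 each). The gap between group means was 0.56 log2 units between piroxicam and robenacoxib, 0.07 between robenacoxib and control, and 0.44 between control and carprofen. The SD within groups, 0.02 to 0.05, was far smaller than the first and last of these gaps and comparable to the middle one.

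The fitted difference from control was 0.63 log2 units with piroxicam (SE 0.03), a 1.55-fold higher level. It was -0.44 with carprofen (SE 0.03), a 1.35-fold lower level. Piroxicam exceeded carprofen by 1.07 (SE 0.03), or 2.10-fold. Few probes differed more between piroxicam and carprofen: 372 of 31996 tested probes (1.16%) and 7 of 614 tested named genes had a larger difference in either direction, and no named gene was as far above carprofen under piroxicam. Against control, a larger absolute difference was seen for 1347 probes (4.21%) with piroxicam and for 2534 (7.92%) with carprofen. MYC was chosen by these same differences, so its ranks among the probes follow from the choice.

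Robenacoxib against control is the 1 comparison of MYC that did not enter its choice, although it uses the same control arrays. The difference was 0.07 log2 units (SE 0.03), a 1.05-fold higher level, with a 95% confidence interval of 0.0023 to 0.15 that does not allow for the number of probes tested. It did not pass limma's moderated test after Benjamini-Hochberg adjustment over all tested probes (adjusted p = 0.133, unadjusted p = 0.0445), and 62.7% of probes differed more. Without robenacoxib 1, whose MYC signal was the lowest of its group, the difference was 0.11 and passed (limma adjusted p = 0.0384). Under scaling to the spiked-in transcripts it was 0.37 (SE 0.05, limma adjusted p = 0.000292), so the call for robenacoxib depends on the scale.

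The submitters' own log2 values ran alongside. In the authors' deposited values MYC was 12.4, 12.4 and 12.4 on the piroxicam arrays, 11.4, 11.2 and 11.4 on the carprofen arrays, 11.7, 11.8 and 11.9 on the robenacoxib arrays, and 11.7, 11.8 and 11.7 on the control arrays. Robenacoxib again overlapped control and the other groups were separate. A fit to those values put MYC 0.67 (SE 0.06) above control with piroxicam, -0.40 (SE 0.06) from control with carprofen and 0.07 (SE 0.06) from control with robenacoxib (limma adjusted p = 0.487).

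The size of the carprofen difference depended on what the arrays were scaled to. Each RNA sample carried spiked-in transcripts of known kind, read by 10 probes with 32 spots each, of which 8 were well above background on all arrays. Relative to those 8, the log2 signal of MYC averaged -0.47 ± 0.04 with piroxicam, -1.38 ± 0.04 with carprofen, -0.91 ± 0.11 with robenacoxib and -1.28 ± 0.04 in controls (SD, n = 3 each). The differences from control were then 0.81 with piroxicam, -0.09 with carprofen and 0.37 with robenacoxib (SE 0.05 each), and piroxicam exceeded carprofen by 0.90. Taken one spiked-in probe at a time, MYC was higher with piroxicam against 8 of 8, by 0.76 to 0.87, and lower with carprofen against 8 of 8, by between -0.22 and -0.01. These 8 readings share the same arrays and the same MYC spot, so they are not independent. On the mean of the 8, the carprofen arrays stayed below the lowest control array, by 0.01 log2 units, where the SD within these groups was 0.04.

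This scale moved nearly every probe, not MYC alone. For every probe it added 0.17 log2 units to piroxicam minus control, 0.34 to carprofen minus control, 0.30 to robenacoxib minus control and -0.17 to piroxicam minus carprofen. In unscaled log2 signal the spiked-in probes stood at -0.04 from control on the piroxicam arrays, -0.20 on the carprofen arrays and -0.22 on the robenacoxib arrays. The 75th percentile stood at 0.13 from control on the piroxicam arrays, 0.15 on the carprofen arrays and 0.08 on the robenacoxib arrays. Of the probes called at an adjusted p under 0.05, the share above control on the percentile scale was 42.5% for piroxicam, 40.7% for carprofen and 43.1% for robenacoxib. On the spiked-in scale it was 93.1% for piroxicam, 99.7% for carprofen and 99.3% for robenacoxib. Between piroxicam and carprofen, 50.3% of called probes were higher with piroxicam on the percentile scale and 9.2% on the spiked-in scale. Whether total messenger RNA per cell or the amount of spiked-in transcript differed between the groups was not tested. Relative to the median of all tested probes MYC was 0.66 from control with piroxicam and -0.42 from control with carprofen. Each scale subtracts the same value from every probe of an array. These differences from the median are therefore equal on both scales by construction, and they say nothing about which scale holds.

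**Figure D2:**
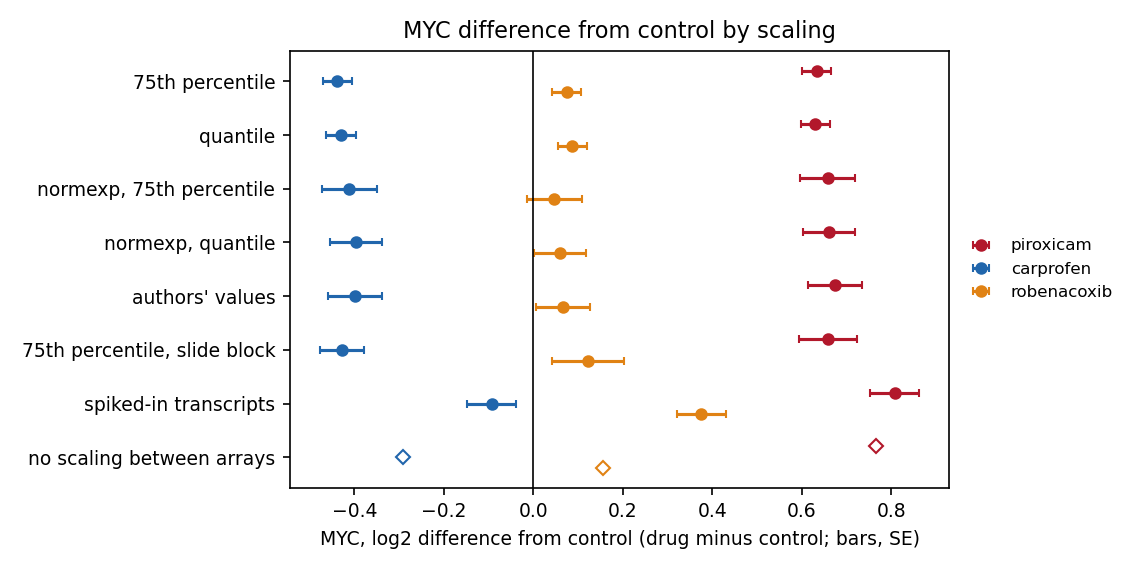
MYC log2 difference from control for piroxicam, carprofen and robenacoxib under 7 fits (filled, bars are SE) and in the unscaled processed signal (open, no error). Piroxicam lies between 0.63 and 0.81 and carprofen between -0.44 and -0.09, the value nearest 0 being that of the scaling to spiked-in transcripts, where robenacoxib is 0.37.

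Comparisons within 1 slide had the same directions. Those among piroxicam, carprofen and control use arrays that entered the choice of MYC, so their directions are a description and no separate support. On slide 1 carprofen 1 was -0.43 log2 units from the mean of the 3 controls, or -0.09 on the spiked-in scale. On slide 2 the 2 piroxicam arrays exceeded the 2 carprofen arrays by 1.09, or 0.92 on the spiked-in scale. On slide 3 the 3 robenacoxib arrays stood at -0.54 from piroxicam 3. No slide held piroxicam or robenacoxib together with a control, so those differences reach control only through carprofen. With slide as a block, the estimates were 0.66 for piroxicam, -0.43 for carprofen and 0.12 for robenacoxib (limma adjusted p = 0.524 for robenacoxib), and 1.09 for piroxicam minus carprofen. Piroxicam 3 on slide 3 read 1.07 and the other piroxicam arrays on slide 2 averaged 1.11. Carprofen 1 on slide 1 read 0.03 and the other carprofen arrays on slide 2 averaged 0.02.

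The residual SD of the MYC probe over the 12 arrays was 0.035 log2 units, against a median of 0.065 over all tested probes and 0.044 over the 2871 probes of like brightness.

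The genes around MYC were taken from 5 lists, namely its dimerisation partners, its cofactors and turnover factors, signals upstream of it, genes known as activated by it and genes known as repressed by it, mostly from work in human and mouse cells. Of their 228 genes 36 could be named on this array and 33 were tested. None of the 12 dimerisation partners, MAX among them, could be named, so nothing is said of them. Each gene is represented by its brightest tested probe. These lists were drawn up with earlier results of these data known.

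With piroxicam against control, 14 of the 33 genes were called (42.4%), 6 higher and 8 lower, where 27.2% of all named genes were called (11.2% higher, 16.0% lower) and 28.0% of all tested probes (11.9% higher, 16.1% lower). Their median difference was -0.02, the same as the -0.02 of all tested probes. With carprofen against control 19 were called (57.6%), 2 higher and 17 lower, where 35.0% of named genes were called (11.2% higher, 23.8% lower) and 32.8% of probes (13.3% higher, 19.5% lower). Their median was -0.14, against -0.02 for all tested probes. With robenacoxib against control 10 were called (30.3%), 2 higher and 8 lower, where 23.6% of named genes were called (7.00% higher, 16.6% lower) and 22.2% of probes (9.57% higher, 12.6% lower). Their median was -0.07, against -0.03 for all tested probes. Between piroxicam and carprofen 20 were called (60.6%), 16 higher and 4 lower with piroxicam, where 32.9% of named genes were called (20.2% higher, 12.7% lower) and 37.5% of probes (18.9% higher, 18.6% lower). Their median was 0.12, against -0.01 for all tested probes. On the spiked-in scale the counts became 18 higher and 2 lower for piroxicam, 29 and 0 for carprofen, 27 and 0 for robenacoxib, and 4 and 9 for piroxicam minus carprofen. Most probes moved likewise. Over the 31996 tested probes, that scale called 12799 higher and 954 lower for piroxicam, 24077 and 80 for carprofen, and 21685 and 151 for robenacoxib. For piroxicam minus carprofen it called 1353 higher and 13347 lower. Of the genes called on the percentile scale, the difference had the opposite sign on the spiked-in scale for 4 of 14 with piroxicam, 16 of 19 with carprofen, 7 of 10 with robenacoxib and 4 of 20 between piroxicam and carprofen.

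**Figure D3:**
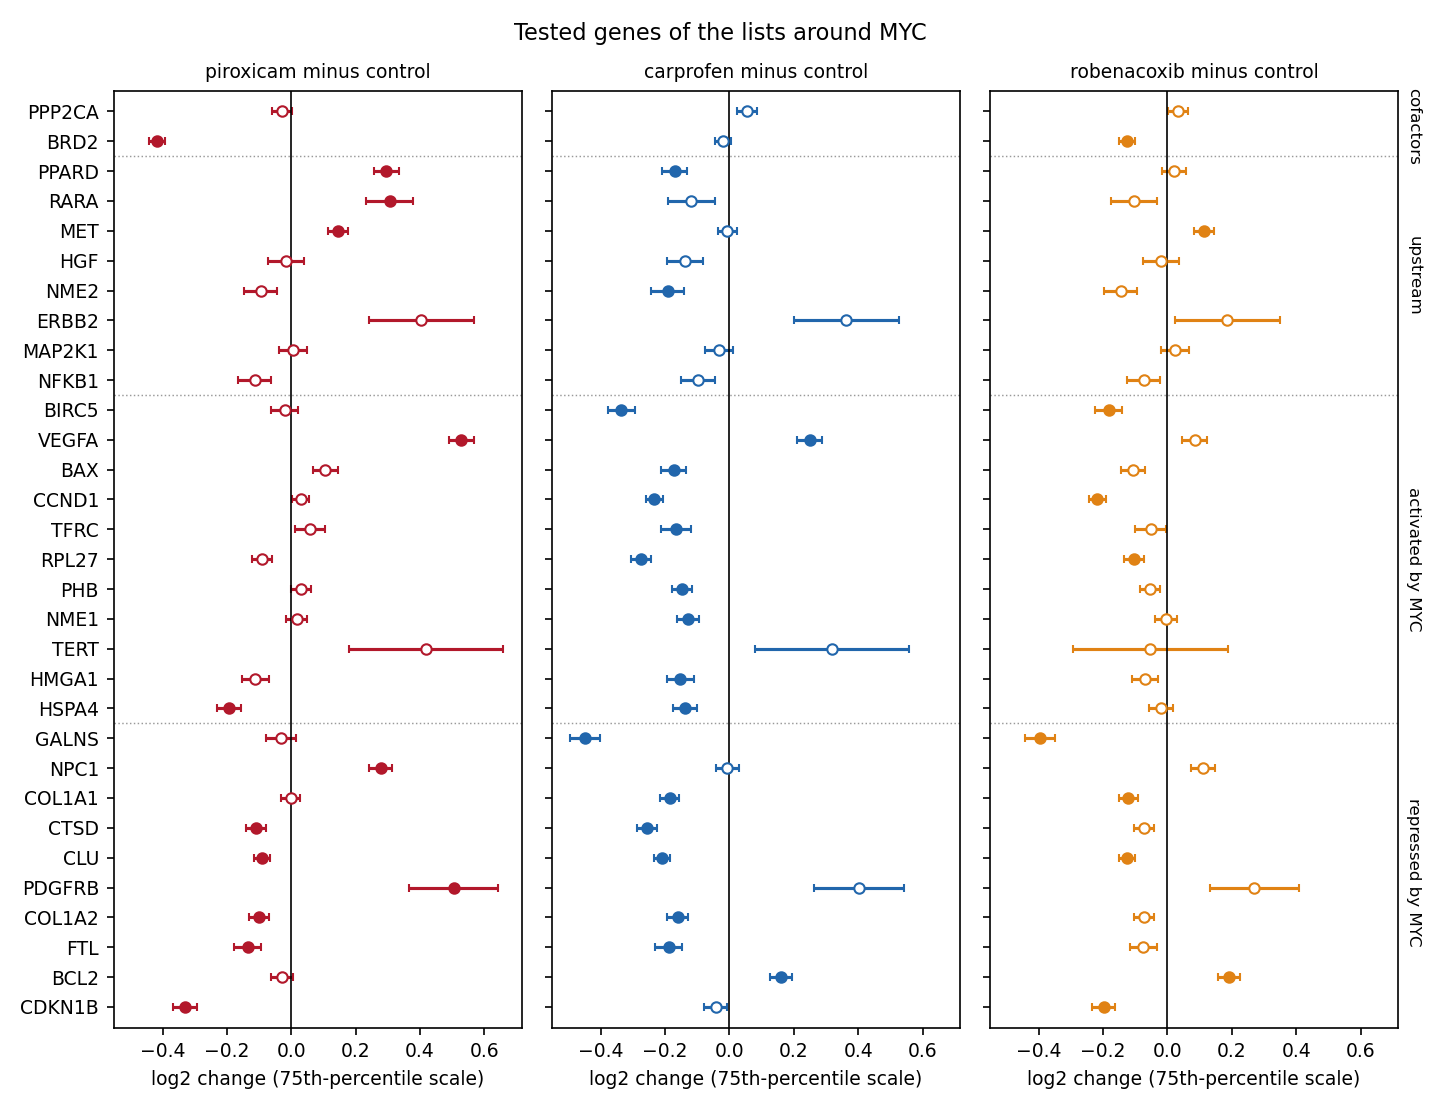
Log2 change of 31 of the 33 tested genes around MYC, grouped by list, for piroxicam, carprofen and robenacoxib each minus control on the 75th-percentile scale. Points are limma estimates with SE, and filled points passed an adjusted p of 0.05; the 9 activated genes lower with carprofen all lie above 0 on the spiked-in scale.

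Of the cofactor and turnover genes 2 were tested. BRD2, a bromodomain protein of the family that recruits the transcription machinery to acetylated chromatin, read 1.17, 1.16 and 1.16 on the piroxicam arrays, 1.59, 1.54 and 1.55 on the carprofen arrays, 1.48, 1.45 and 1.43 on the robenacoxib arrays, and 1.56, 1.59 and 1.58 on the control arrays. Piroxicam was below every other array and robenacoxib lay between piroxicam and the other groups. BRD2 fell by 0.42 log2 units with piroxicam against control (SE 0.02, limma adjusted p = 8.63e-06), with all 3 of its probes lower, and by 0.24 on the spiked-in scale. Against carprofen it was lower by a difference of -0.40 (SE 0.02, limma adjusted p = 2.91e-06). With carprofen its brightest probe did not pass the test against control (-0.02, limma adjusted p = 0.577), while its probes ranged from -0.21 to 0.41 there. Between piroxicam and carprofen its probes ranged from -1.33 to -0.22. With robenacoxib it was -0.13 from control, a call lost with slide as a block and 0.17 on the spiked-in scale, and its probes ranged from -0.32 to 0.38. PPP2CA, a catalytic subunit of the phosphatase that removes the stabilising phosphate from MYC, was called in none of the 4 comparisons, with differences of -0.03, 0.05 and 0.03 for the 3 drugs against control.

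Of 13 upstream genes that could be named, 10 were tested. With piroxicam 3 rose and 1 fell against control. PPARD, a fatty acid-sensing nuclear receptor, read -0.42, -0.35 and -0.31 on the piroxicam arrays, -0.78, -0.84 and -0.85 on the carprofen arrays, -0.57, -0.64 and -0.69 on the robenacoxib arrays, and -0.63, -0.67 and -0.66 on the control arrays. It had the order of MYC, highest with piroxicam, lowest with carprofen, with robenacoxib overlapping control. It was 0.30 above control with piroxicam (SE 0.04, limma adjusted p = 0.000602). With carprofen it was -0.17 from control (SE 0.04, limma adjusted p = 0.00837), which became 0.17 on the spiked-in scale. The other PPARD probe gave -0.04 with carprofen, and the carprofen call was lost with slide as a block (limma adjusted p = 0.127). RARA, a retinoic acid receptor, was 0.31 above control with piroxicam, though its other probe gave -0.50. MET, the hepatocyte growth factor receptor, was 0.15 above control with piroxicam and 0.11 with robenacoxib, and HGF itself was called with no drug. With carprofen NME2, a nucleoside diphosphate kinase reported to bind the human MYC promoter, was -0.19 from control and 0.15 on the spiked-in scale. The kinase MAP2K1, the receptor ERBB2 and the NF-kappaB subunit NFKB1 passed the test in none of the 4 comparisons.

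Of 86 genes listed as activated by MYC, 11 could be named and all were tested. Against control 9 fell and 1 rose with carprofen, with a median of -0.15, whereas 1 rose and 1 fell with piroxicam, with a median of 0.03, and 3 fell with robenacoxib, with a median of -0.05. Between piroxicam and carprofen 8 of the 11 were higher with piroxicam and 0 lower, with a median of 0.18. Over all named genes, 23.8% fell and 11.2% rose with carprofen, 16.0% and 11.2% with piroxicam, and 16.6% and 7.00% with robenacoxib. Between piroxicam and carprofen 20.2% of named genes were higher with piroxicam and 12.7% lower. The 9 lower calls with carprofen became 5 under quantile scaling, 4 with slide as a block, 4 with normexp and the 75th percentile, 2 with normexp and quantile scaling, 2 in the authors' values, where the median was -0.05, and 0 on the spiked-in scale. Of the 8 higher calls between piroxicam and carprofen, all 8 were kept with slide as a block and under quantile scaling, 7 with normexp and the 75th percentile, 5 with normexp and quantile scaling, 5 in the authors' values, and 1, BIRC5, on the spiked-in scale.

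CCND1, cyclin D1, which drives cells through the G1 phase, read 3.17, 3.15 and 3.21 on the piroxicam arrays, 2.92, 2.90 and 2.93 on the carprofen arrays, 2.93, 2.90 and 2.97 on the robenacoxib arrays, and 3.17, 3.13 and 3.15 on the control arrays. Piroxicam overlapped control, and both other drugs lay below every control array. The carprofen difference was -0.23 (SE 0.03, limma adjusted p = 0.00026) and the robenacoxib difference -0.22 (SE 0.03, limma adjusted p = 0.000625), but both turned positive on the spiked-in scale, at 0.11 and 0.08. CCND1 was 0.26 higher with piroxicam than with carprofen (SE 0.03, limma adjusted p = 6.47e-05).

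BIRC5, survivin, a protein of dividing cells that also blocks apoptosis, read 2.96, 3.04 and 3.00 on the piroxicam arrays, 2.72, 2.66 and 2.67 on the carprofen arrays, 2.85, 2.91 and 2.75 on the robenacoxib arrays, and 3.05, 2.98 and 3.03 on the control arrays. Carprofen lay below all other groups. The difference from control was -0.34 with carprofen (SE 0.04, limma adjusted p = 0.000382) and 0.01 on the spiked-in scale. RPL27, a protein of the large ribosomal subunit, was -0.27 from control with carprofen (SE 0.03, limma adjusted p = 0.00026) and 0.07 on the spiked-in scale, against -0.09 with piroxicam, which did not pass the test.

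The other activated genes that fell with carprofen were BAX, a pore-forming protein of apoptosis, TFRC, the transferrin receptor, HMGA1, a chromatin protein, PHB, prohibitin, HSPA4, a heat shock protein, and NME1, a nucleoside diphosphate kinase. Their differences from control ran from -0.17 for BAX to -0.13 for NME1, and each was positive on the spiked-in scale. In the authors' values none of them was called, and their differences ran from -0.13 for TFRC to 0.06 for PHB, with NME1 at 0.03. HSPA4 was the 1 activated gene that fell with piroxicam, by 0.19 (SE 0.04, limma adjusted p = 0.00535), and its difference was -0.02 on the spiked-in scale. VEGFA, the angiogenic growth factor, departed from the others. It read 3.91, 3.84 and 3.81 on the piroxicam arrays, 3.56, 3.53 and 3.63 on the carprofen arrays, 3.38, 3.39 and 3.46 on the robenacoxib arrays, and 3.34, 3.35 and 3.29 on the control arrays. It rose by 0.53 with piroxicam (SE 0.04, limma adjusted p = 2.93e-05), with both probes higher, and by 0.25 with carprofen (SE 0.04, limma adjusted p = 0.00125), where its other probe gave -0.21. TERT, the catalytic subunit of telomerase, had differences of 0.42 with piroxicam and 0.32 with carprofen with an SE of 0.24 and passed the test with neither.

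**Figure D4:**
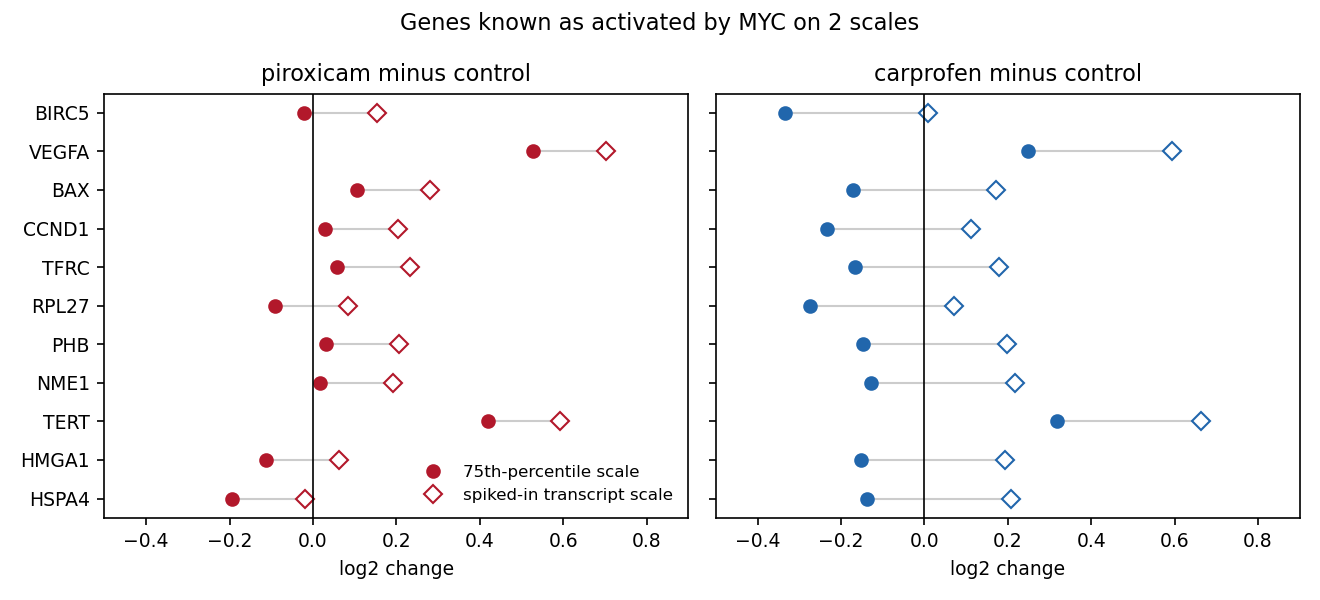
Log2 change against control of the 11 tested genes known as activated by MYC, for piroxicam (left) and carprofen (right), on the 75th-percentile scale (filled) and relative to spiked-in transcripts (open). With carprofen 9 of the 11 genes lie below 0 on the first scale and none does on the second, a shift of 0.34 log2 units common to all probes.

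Of 45 genes listed as repressed by MYC, 10 could be named and all were tested. On the percentile scale they did not run opposite to the activated genes. With carprofen 6 fell and 1 rose against control, with a median of -0.17, beside -0.15 for the activated genes. With piroxicam 5 fell and 2 rose, with a median of -0.06, and with robenacoxib 4 fell and 1 rose, with a median of -0.07. Between piroxicam and carprofen 5 were higher with piroxicam and 2 lower, with a median of 0.11. Over all named genes, 23.8% fell and 11.2% rose with carprofen, 16.0% and 11.2% with piroxicam, and 16.6% and 7.00% with robenacoxib. The repressed list also depended on the scale. With carprofen 2 fell and 1 rose in the authors' values (median -0.01), and 0 fell and 9 rose on the spiked-in scale (median 0.17). With piroxicam 1 fell and 5 rose on the spiked-in scale.

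CDKN1B, the cyclin-dependent kinase inhibitor p27, read -1.77, -1.82 and -1.72 on the piroxicam arrays, -1.44, -1.49 and -1.52 on the carprofen arrays, -1.61, -1.66 and -1.64 on the robenacoxib arrays, and -1.48, -1.46 and -1.38 on the control arrays. Piroxicam was lowest, robenacoxib next, and carprofen overlapped control. The difference from control was -0.33 with piroxicam (SE 0.04, limma adjusted p = 0.000245), -0.16 on the spiked-in scale, and -0.20 with robenacoxib (SE 0.04, limma adjusted p = 0.00495), which became 0.10. Both CDKN1B probes were lower with piroxicam, but a fit to the authors' deposited values gave -0.14 and no call (limma adjusted p = 0.15).

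GALNS, a lysosomal sulfatase, read -2.50, -2.50 and -2.55 on the piroxicam arrays, -2.98, -2.96 and -2.86 on the carprofen arrays, -2.81, -2.96 and -2.87 on the robenacoxib arrays, and -2.48, -2.53 and -2.45 on the control arrays. It was lower than every control with carprofen and robenacoxib, by differences of -0.45 and -0.40 (SE 0.05 each; limma adjusted p = 0.000137 for carprofen and 0.000439 for robenacoxib), and both differences became -0.10 on the spiked-in scale. NPC1, a lysosomal cholesterol exporter, was 0.28 above control with piroxicam, and both of its probes were called. PDGFRB, a platelet-derived growth factor receptor and also one of the fibroblast markers, was 0.50 above control with piroxicam (SE 0.14, limma adjusted p = 0.0239), but its other probe gave -0.14 and the difference was 0.11 with slide as a block. BCL2, which blocks apoptosis, was 0.16 above control with carprofen and 0.19 with robenacoxib, and -0.03 with piroxicam. The secreted chaperone CLU, the lysosomal protease CTSD, the ferritin chain FTL and the collagens COL1A1 and COL1A2 were lower with carprofen, at -0.16 to -0.25, and all 5 were positive on the spiked-in scale, at 0.09 to 0.18.

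Leaving out each array in turn, all 20 calls between piroxicam and carprofen held, as did 9 of 14 for piroxicam, 14 of 19 for carprofen and 7 of 10 for robenacoxib against control. With slide as a block the calls kept were 20 of 20 between piroxicam and carprofen, 5 of 14 for piroxicam (BRD2, CDKN1B, NPC1, PPARD and VEGFA), 9 of 19 for carprofen and 0 of 10 for robenacoxib against control. Without control 3 the number of genes called with piroxicam was 9. Every comparison of piroxicam or robenacoxib with control crosses slides, and the part of the slide in them was not tested apart from this block.

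Beside MYC stood 4 tested genes of the immediate early class, which like MYC respond to growth signals without new protein synthesis. PTGS2, cyclooxygenase 2, a target of all 3 drugs, read -3.66, -3.70 and -3.81 on the piroxicam arrays, -2.72, -2.78 and -2.78 on the carprofen arrays, -2.97, -2.86 and -2.95 on the robenacoxib arrays, and -3.25, -3.17 and -3.27 on the control arrays. It was lowest with piroxicam and highest with carprofen, the reverse of MYC at those ends. Its differences from control were -0.49 with piroxicam, 0.47 with carprofen and 0.30 with robenacoxib (SE 0.05 each; limma adjusted p = 0.000108 for piroxicam, 0.000111 for carprofen and 0.00193 for robenacoxib). These directions held on the spiked-in scale, and the robenacoxib call was lost with slide as a block. CXCL8, the neutrophil chemokine interleukin 8, was 0.49 above control with piroxicam, 0.42 with robenacoxib and -0.12 with carprofen, the last becoming 0.22 on the spiked-in scale. With slide as a block its robenacoxib and carprofen calls were lost, and the carprofen call was also lost in 4 of 6 fits that left out an array and in the authors' values, where the difference was -0.01. NR4A1, an orphan nuclear receptor, passed the test only between piroxicam and carprofen, at -0.97 (SE 0.21, limma adjusted p = 0.00529). Its processed signal was low, from 52.8 on piroxicam 3 to 138 on carprofen 2. FOSB, a subunit of AP-1, passed in none of the 4 comparisons.

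GAPDH, a glycolytic enzyme often taken as a constant reference, was -0.33 from control with piroxicam, -0.24 with carprofen and -0.29 with robenacoxib on the percentile scale (SE 0.07 each), and its 7 probes ranged from -0.33 to -0.06 with piroxicam. It was called with each drug on that scale and with none under slide as a block, where its differences were -0.06, -0.04 and -0.05. The carprofen call was lost in 5 of the 6 fits that left out an array, and on the spiked-in scale that difference was 0.11.

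The named genes whose pattern over the 12 arrays was most like that of MYC were found by Pearson's r among 545 named genes well above background on all arrays, with no p since the 12 arrays share 4 groups. Of the 10 highest, 8 are given here, namely BHLHE41 (r = 0.96), PPARD (0.959), NICN1 (0.948), ANP32A (0.943), FLT3 (0.941), GALK1 (0.931), IL5 (0.929) and SNAI2 (0.929). Since they were chosen by their likeness to MYC, the signs they share follow from the choice. Their differences from control ran from 0.11 for GALK1 to 0.46 for NICN1 with piroxicam, and from -0.25 for NICN1 to -0.05 for IL5 with carprofen, where IL5, SNAI2 and FLT3 did not pass the test. On the spiked-in scale the carprofen differences of these 8 were 0.09 to 0.29. BHLHE41, a clock-linked basic helix-loop-helix repressor, read 2.43, 2.47 and 2.42 on the piroxicam arrays, 2.13, 2.07 and 2.14 on the carprofen arrays, 2.20, 2.25 and 2.29 on the robenacoxib arrays, and 2.29, 2.31 and 2.23 on the control arrays. NICN1, a protein of the tubulin polyglutamylase complex, came nearest to the size of MYC, 0.71 higher with piroxicam than with carprofen. SNAI2, a repressor of epithelial genes active in neural crest cells, was 0.33 above control with piroxicam and -0.05 from it with carprofen.

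The 5 most opposite were MX1 (r = -0.967), BCL2L2 (-0.964), ARHGAP35 (-0.962), TGM1 (-0.955) and CD163 (-0.941). They were chosen by r, so their opposite signs follow from the choice. On the spiked-in scale r ran from -0.776 for BCL2L2 to -0.482 for ARHGAP35, and ARHGAP35 was 0.02 from control with piroxicam. TGM1, the transglutaminase of the epidermal barrier, read -4.07, -3.89 and -4.03 on the piroxicam arrays, -2.70, -2.84 and -2.82 on the carprofen arrays, -3.25, -3.16 and -3.19 on the robenacoxib arrays, and -3.48, -3.42 and -3.27 on the control arrays. Piroxicam lay 1.21 below carprofen, a larger difference than that of MYC in the other direction. TGM1 was also the 1 epithelial marker of 8 that could be named. MX1, an interferon-induced antiviral GTPase, was -0.31 from control with piroxicam and 0.10 with carprofen, where its other probe gave -0.01. BCL2L2, a relative of BCL2 that blocks apoptosis, was -0.51 from control with piroxicam and 0.13 with carprofen. Both carprofen calls were lost with slide as a block (limma adjusted p = 0.126 for MX1 and 0.134 for BCL2L2). Among the listed genes around MYC, r was highest for PPARD, NPC1 (0.886) and BAX (0.86) and lowest for BRD2 (-0.888) and CDKN1B (-0.809), and PTGS2 had -0.907.

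**Figure D5:**
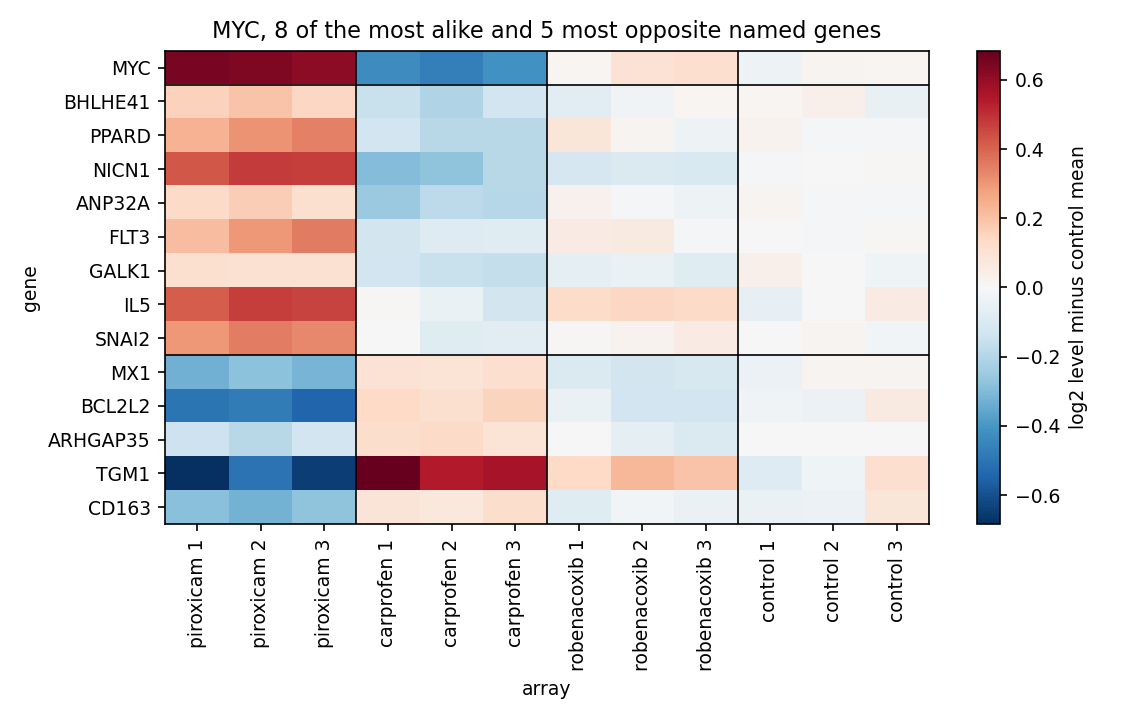
Log2 level on the 75th-percentile scale minus the control mean, for MYC (top), 8 of the 10 named genes most like it and the 5 most opposite (bottom), with 1 column for each of the 12 arrays in the order piroxicam, carprofen, robenacoxib, control. MYC is high in all 3 piroxicam columns and low in all 3 carprofen columns; on the spiked-in scale the 8 alike genes would all lie above control with carprofen.

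Of 28345 other probes well above background, 213 (0.751%) had an r of at least 0.95 with MYC and 152 (0.536%) an r of at most -0.95, and 9 and 21 of these differed at least 2-fold between piroxicam and carprofen. On the spiked-in scale 59 probes (0.208%) had an r of at least 0.95 and 2 (0.00706%) an r of at most -0.95. Among named genes 4 of 545 (0.734%) passed in each direction. The closest probe of all had r = 0.996 and carries no gene name here (A_11_P0000021951). Its differences from control were 0.26 with piroxicam, -0.18 with carprofen and 0.04 with robenacoxib.

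In the neighbourhood of MYC, taken as 10 Mb to either side in the dog assembly UU_Cfam_GSD_1.0, ANXA13, an intestinal annexin, and TG, the thyroglobulin precursor of thyroid hormone, could be named. Neither was tested, since ANXA13 was above background on 5 of 12 arrays and the 2 probes of TG on 0. The arrays therefore give no reading of whether genes next to MYC moved with it.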

How the data were processed

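RNA of 12 cultures was hybridised to Agilent 1-colour arrays. Per the file headers, the deposited scanner intensity (processed signal) came from Feature Extraction 10.7.3.1, protocol GE1_107_Sep09. The deposited table holds the authors' log2 values; the submitters' processing notes name limma 3.24.15, and its settings are not given in the sources consulted. Spots of a probe were averaged, the log2 processed signal was taken minus each array's 75th percentile, and 31996 probes, each well above background on every array of some group, were fitted with limma 3.58.1 in R 4.3.3 (lmFit, eBayes, all 12 arrays, two-sided, Benjamini-Hochberg over all tested probes within a comparison). A call is an adjusted p under 0.05. Array number, 3 a group, limits the precision.

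Alternatives were quantile scaling, 8 spiked-in probes, normexp (offset 50) on the median and local background signals, since the mean signal is not in the files used here, the authors' values, slide as a block or within a slide, a replicate block, and each array left out. Probe names came from transcript accessions matched to a RefSeq table; 1313 probes matched and 42290 did not. A gene is read by its brightest tested probe. The genes named were all MYC probes, up to 5 called genes of largest change for each list and comparison, with other members given by their values, the 10 genes most like MYC and the 5 most opposite, genes fixed by name, and neighbours within 10 Mb. MYC, the lists and the tests were chosen with earlier results of these data known. Groups share replicate numbers, and of 18 pairs of equal number 3 had correlated deviations above 0.1 (range -0.346 to 0.305). The main fit did not pair the arrays by number. With 3 arrays a group and slides that cut across the numbers, these correlations cannot show whether equal numbers mark a pairing. The scripts were tested on simulated data. A few genes that the rule would name are counted in the totals and are not reported here by name.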

Additional observations from a re-analysis of the deposited data

How the results depend on the processing

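The MYC estimate kept its sign under every setting run, for each drug against control and for piroxicam minus carprofen. Apart from robenacoxib, these signs entered the choice of MYC, so this is a description. Settings that changed only the probe filter, the replicate block or the groups fitted left the estimate as it was. Carprofen with spiked-in transcripts (-0.09, SE 0.05) and robenacoxib with normexp and the 75th percentile (0.05, SE 0.06) lay near 0. For the differences given with no test, the estimates that moved by more than the spread between replicates were, for piroxicam, 0.81 with scaling to spiked-in transcripts and 0.67 in the authors' values; for carprofen, -0.094 with spiked-in transcripts, -0.40 with normexp and quantile scaling and -0.40 in the authors' values; and for piroxicam minus carprofen, 0.90 with spiked-in transcripts. Robenacoxib was 0.12 with slide as a block, without passing the test, and passed it at 0.37 with spiked-in transcripts; leaving out 1 array gave 0.056 to 0.11, passing without robenacoxib 1. Of the 33 listed genes, those called with piroxicam fell to 5 with slide as a block and were 9 to 11 with 1 array left out. For carprofen they were 12 under quantile scaling, 29 with spiked-in transcripts, 11 with normexp and the 75th percentile, 8 with normexp and quantile scaling, 7 in the authors' values, 9 with the slide block and 0 within slide 1, where 1 carprofen array met 3 controls. For robenacoxib they were 27 with spiked-in transcripts and 0 with the slide block. For piroxicam minus carprofen they were 13 with spiked-in transcripts, 13 with normexp and the 75th percentile, 12 with normexp and quantile scaling, 12 in the authors' values and 8 within slide 2, which has fewer arrays. With a replicate block the robenacoxib difference of MYC was 0.07 (limma adjusted p = 0.183) and 11, 19, 9 and 20 listed genes were called for piroxicam, carprofen, robenacoxib and piroxicam minus carprofen; the block changed no call of MYC. Of the 10 genes most like MYC, 3 stayed among the top 10 by r over group means, 3 after subtracting slide means, 5 with spiked-in transcripts, 6 in the authors' values and 5 by Spearman's rho. Apart from the smaller within-slide fits, the cause of these shifts was not tested. The 3 arrays a group, the 1 probe of MYC and the conflicting doses and times limit all values.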
